A study of Saccharomyces cerevisiae with 12 samples.

Results

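The genes described here are the 35 budding yeast genes for the subunits of the proteasome, the ECM29 factor that goes with it and its transcriptional activator RPN4, out of 6388 gene probes on each array. They were chosen by name, and each was found by its symbol in the array's gene annotation as a probe spotted 2 times: 14 genes of the 20S core, 19 of the 19S cap, ECM29 and RPN4. Transcript levels were measured on 12 arrays in Saccharomyces cerevisiae cultures of 3 strains, with 2 cultures from separate colonies in each of 6 groups. The groups were Mot1-FRB cells (strain YGP200) with rapamycin and untreated, NCB2-FRB cells (strain YGP201) with rapamycin and untreated, and WT cells (strain HHY168) with rapamycin and untreated. Rapamycin was given at 1 µg/ml for 60 min, and the untreated cultures grew for the same 60 min in the same glucose medium. FRB is the rapamycin-binding tag of the anchor-away method, in which the drug ties a tagged nuclear protein to an FKBP12-tagged anchor that carries it out of the nucleus. Anchor-away parent strains carry a rapamycin-resistant TOR1 allele, lack FPR1 and bear the anchor on a ribosomal protein, and all 6 groups share that background, WT included. Mot1 removes the TATA-binding protein from DNA, and Ncb2 is the beta subunit of NC2, a repressor that sits on the TATA-binding protein. The comparisons therefore ask how proteasome transcripts differ after rapamycin in each tagged strain, set against the same drug in untagged cells.

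The proteasome is the protease that degrades proteins marked with ubiquitin. Its 20S core is a barrel of alpha rings that gate the entrance and beta rings that hold the cutting sites inside. The 19S cap recognises ubiquitin chains, cuts them off and unfolds the substrate; its base holds a ring of ATPases (RPT genes) and scaffold or receptor subunits, and its lid holds the deubiquitinase. Rpn4 is a short-lived activator that binds a shared element in the promoters of most of these genes and is itself degraded by the proteasome, a loop that in budding yeast keeps subunit transcripts matched to demand.

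Each value below is the log2 ratio of a culture to a common reference of untreated WT RNA on the same array, given for culture a and then culture b, and a change is the treated mean minus the untreated mean on that scale ± SE (n = 2 cultures a group). The cultures are bulk samples scaled so that the typical gene sits near 0. More or fewer cells with a transcript and more or less of it per cell thus cannot be told apart. Without a block, p-values rest on the spread between the cultures of a group. That spread includes the dye, since every culture a was labelled with Cy3 and every culture b with Cy5. None of the 35 probes was saturated on any array, and 27 were above the blank spots on all 12. PRE8, PUP2, PRE3, PRE2, RPT5, RPT6, RPN12 and SEM1 were above them on 11, the exception being the array of treated WT culture a. That array was dim, with a signal over background of 1.61 against 8.25 to 21.6 on the other 11. The transcripts of the tagged genes do not check the depletion, which acts on the protein. MOT1 stood at 1.77 and 1.88 with rapamycin, against 0.78 and 0.69 without in Mot1-FRB, and NCB2 at 0.14 and -0.21 with rapamycin, against -0.54 and -0.81 without in NCB2-FRB. Both transcripts were also higher with rapamycin in the other tagged strain. There MOT1 stood at 1.33 and 1.11, against 0.22 and 0.070 without in NCB2-FRB, and NCB2 at 1.36 and 1.02, against 0.55 and 0.28 without in Mot1-FRB. In WT, MOT1 was at 0.037 and 0.094 with rapamycin, against 0.15 and -0.022 without, and NCB2 at 0.081 and -0.16 with rapamycin, against 0.12 and -0.16 without.

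Rapamycin changed 6 of the 35 proteasome transcripts in Mot1-FRB cells and 10 in NCB2-FRB cells in the fit reported here, or 19 and 17 with the culture letters a and b as a block. In the fit without the block, in Mot1-FRB cells ECM29, RPN4 and the alpha subunit gene PRE6 rose, while the ubiquitin receptor gene RPN10, the lid gene RPN8 and the ATPase gene RPT3 fell. In NCB2-FRB cells ECM29, RPN4, PRE6, PRE5, PRE7, PUP1, RPN1 and RPN2 rose, and PRE4 and SEM1 fell. The largest change in either strain was that of ECM29, 1.69-fold in Mot1-FRB and 2.50-fold in NCB2-FRB, and the next was that of RPN1 in NCB2-FRB, at 0.62 ± 0.12. ECM29, RPN4 and PRE6 were the 3 members that rose in both strains, 13 were called in at least 1 of them and 22 in neither. The matching shares of all probes across both strains are not given here, so these counts are not set apart from the background. Centring each array on its median or on external controls, with no intensity curve, kept the sign of each of these changes, but left only ECM29 in NCB2-FRB past the threshold, with the median, and none with the controls. With the controls all of them had the same adjusted p, 0.999959 in Mot1-FRB and 0.999994 in NCB2-FRB, ECM29 included. That setting therefore does not tell these genes apart.

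In limma's moderated test, with Benjamini-Hochberg adjustment over all 6388 probes and a threshold of 0.05, 6 of the 35 members (17.1%) were called in Mot1-FRB, 3 higher and 3 lower. Over all probes 37.3% were called in that comparison, 22% higher and 15.3% lower. In NCB2-FRB 10 members (28.6%) were called, 8 higher and 2 lower, against 41% of all probes, of which 22.8% were higher and 18.2% lower. The share of members called in either direction was thus below that of all probes in both strains, while the share called higher in NCB2-FRB, 22.9%, was near it. The median log2 change of the 35 members was -0.021 in Mot1-FRB, against 0.0097 for all probes, and 0.070 in NCB2-FRB, against -0.0062 for all probes. Arrays with the same culture letter deviated together, and with the letter as a block 19 members (54.3%) were called in Mot1-FRB (7 higher, 12 lower) and 17 (48.6%) in NCB2-FRB (13 higher, 4 lower). With that block 62.3% of all probes were called in Mot1-FRB, 33.9% higher and 28.4% lower, and 62.6% in NCB2-FRB, 31.8% higher and 30.8% lower. Both treated cultures lay above both untreated ones for 8 members in Mot1-FRB and below them for 12, while 35.8% and 31.5% of all probes did so. The corresponding NCB2-FRB counts were 15 members above and 5 below, beside 33.6% and 33.1% of all probes.

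**Figure D1:**
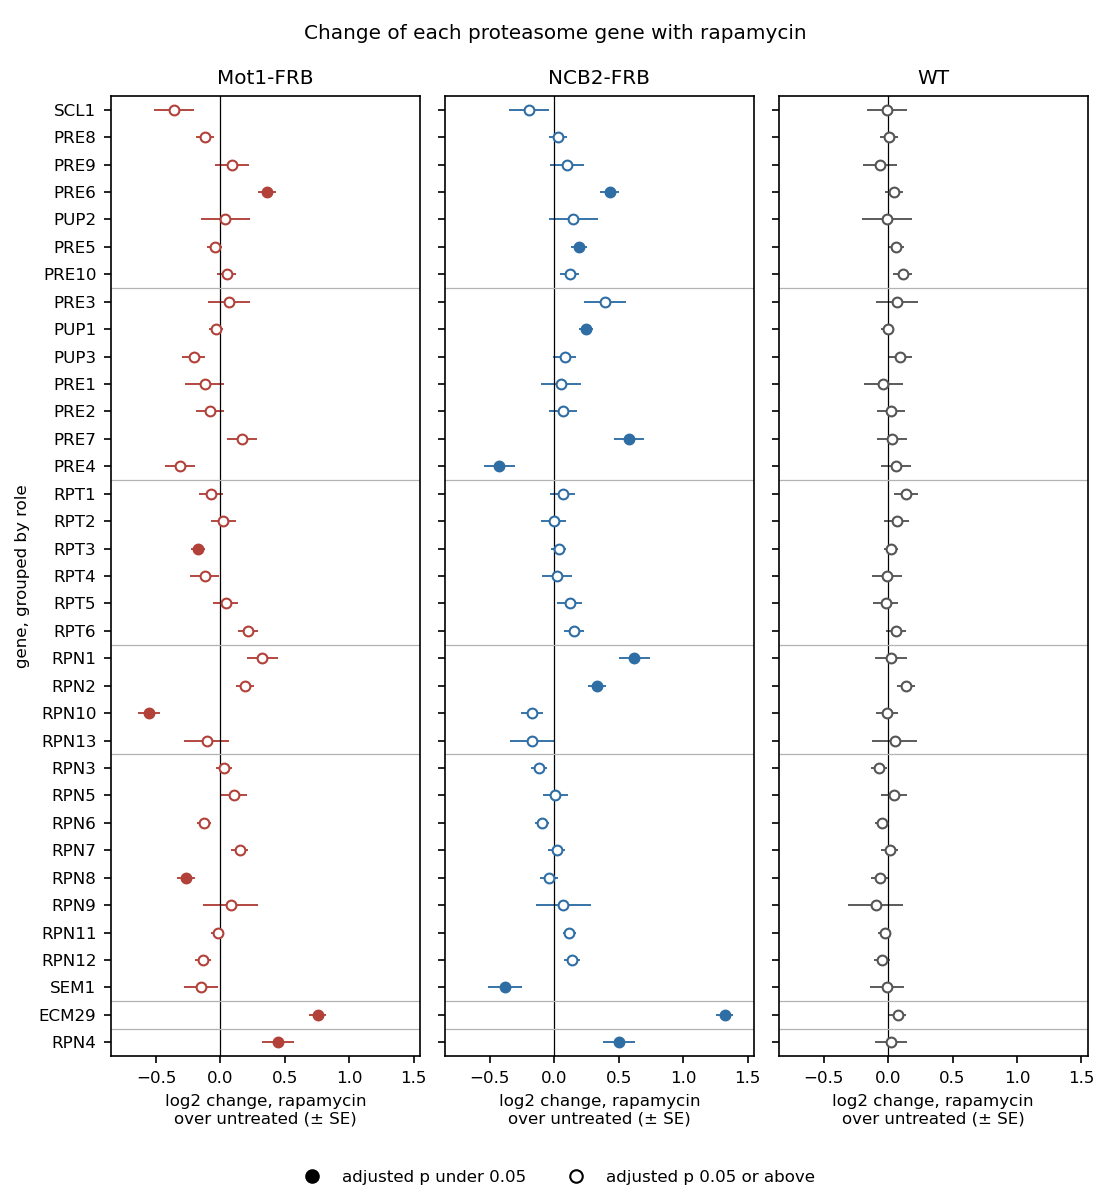
Log2 change with rapamycin over untreated (x axis, ± SE) of each of the 35 genes (rows, grouped by role) in Mot1-FRB, NCB2-FRB and WT cells; filled points passed an adjusted p of 0.05 and open points did not. Filled points number 6 in Mot1-FRB, 10 in NCB2-FRB and 0 in WT, and ECM29 lies farthest to the right in both tagged strains.

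**Figure D2:**
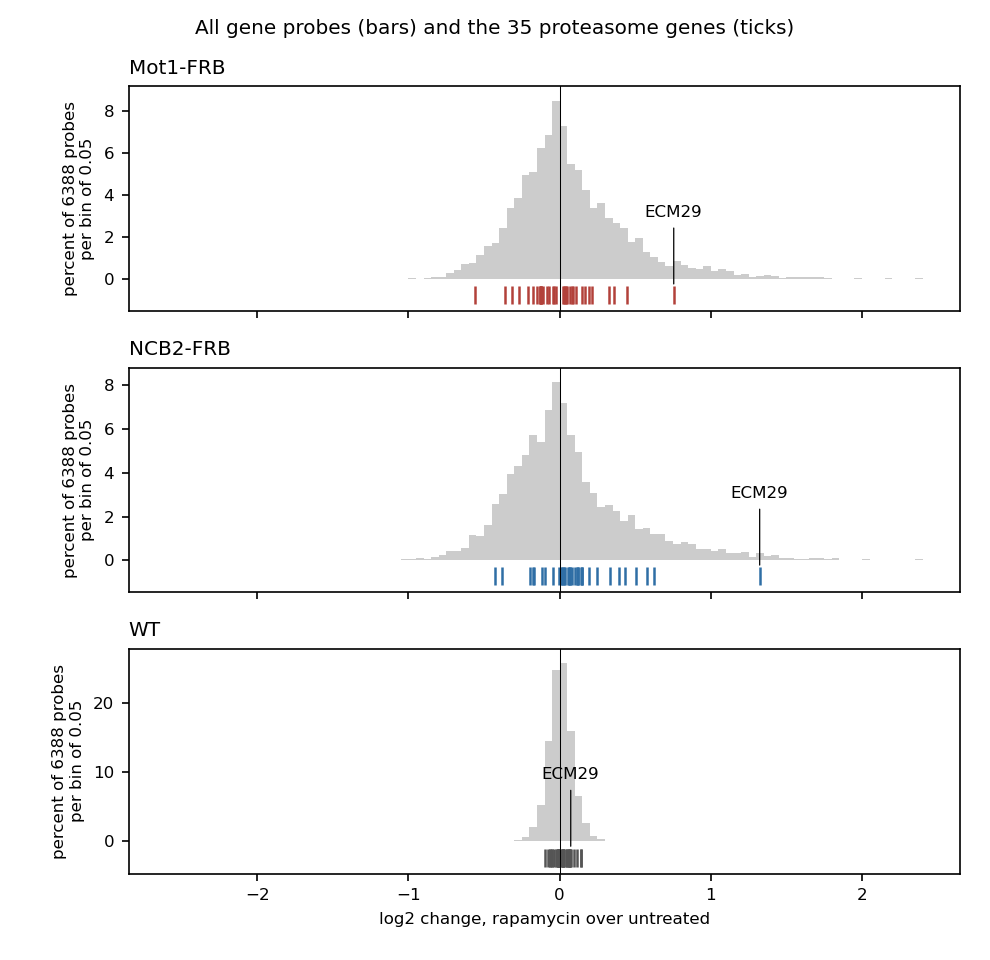
Distribution of the log2 change over all 6388 probes (bars, percent of probes per bin of 0.05) with the 35 genes as ticks below, for Mot1-FRB, NCB2-FRB and WT. Most ticks lie in the bulk of each distribution, with ECM29 on the right flank in Mot1-FRB and NCB2-FRB and the WT ticks between -0.098 and 0.14.

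The alpha subunits form the outer rings of the core and its gate. PRE6 was the member of this ring that rose in both tagged strains. Its ratio was 0.33 and 0.43 with rapamycin, against -0.054 and 0.096 without in Mot1-FRB, and 0.34 and 0.32 with rapamycin, against -0.17 and -0.033 without in NCB2-FRB. In WT it was -0.083 and -0.062 with rapamycin, against -0.13 and -0.11 without. All 4 treated cultures of the tagged strains were thus above every other culture. The change was 0.36 ± 0.072 in Mot1-FRB (adjusted p = 0.00415) and 0.43 ± 0.072 in NCB2-FRB (adjusted p = 0.00142). With loess per print tip it was smaller and not called (0.16, adjusted p = 0.134 in Mot1-FRB and 0.17, adjusted p = 0.123 in NCB2-FRB), and in the authors' deposited values it was 0.25, adjusted p = 0.00516 in NCB2-FRB. PRE5 rose in NCB2-FRB by 0.19 ± 0.061 (adjusted p = 0.0322), a call lost without treated culture a (0.14, adjusted p = 0.157) or untreated culture a (0.15, adjusted p = 0.185). It was larger with loess per print tip (0.31, adjusted p = 0.00123) and in the authors' deposited values (0.29, adjusted p = 0.00102).

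SCL1 had the largest difference of the ring in Mot1-FRB without passing the test. It was at -0.47 and -0.29 with rapamycin, against -0.14 and 0.10 without in Mot1-FRB, -0.37 and 0.037 with rapamycin, against -0.10 and 0.16 without in NCB2-FRB and -0.089 and 0.095 with rapamycin, against -0.081 and 0.10 without in WT. Treated Mot1-FRB cultures lay below untreated ones within each letter, and culture a lay below culture b in all 6 groups. Its log2 difference of -0.36 ± 0.16 in Mot1-FRB had an adjusted p of 0.0983, or 0.000505 with the letter as a block, and its -0.20 ± 0.16 in NCB2-FRB had 0.356, or 0.0143 with the block. PUP2 had the smallest difference of the ring in Mot1-FRB, with a ratio of 0.11 and -0.16 with rapamycin, against 0.078 and -0.20 without, and in NCB2-FRB it was 0.31 and -0.15 with rapamycin, against 0.050 and -0.19 without. In WT cells PUP2 was at 0.032 and -0.22 with rapamycin, against 0.10 and -0.27 without. For PUP2 the gap between letters, 0.24 to 0.46 in the 6 groups, exceeded the mean difference with rapamycin in every strain. PRE8 showed the smallest difference in NCB2-FRB, at -0.021 and 0.063 with rapamycin, against -0.0042 and -0.0098 without. It was at -0.22 and -0.080 with rapamycin, against -0.060 and 0.0029 without in Mot1-FRB and -0.054 and -0.036 with rapamycin, against -0.11 and 0.0059 without in WT. Its difference of -0.12 ± 0.070 in Mot1-FRB passed only with the block (adjusted p = 0.203 without it and 0.0451 with it). The others, PRE9 (a subunit that yeast can live without) and PRE10, had log2 differences of 0.049 to 0.12 in the tagged strains, none past the threshold.

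The beta subunits line the chamber; PRE3, PUP1 and PRE2 encode those with cutting sites. In NCB2-FRB cells PRE7 and PUP1 rose and PRE4 fell, so that subunits of the same ring moved in opposite directions, while in Mot1-FRB cells no beta gene was called. PRE7, a subunit without a cutting site, was at 0.50 and 0.76 with rapamycin, against 0.037 and 0.059 without in NCB2-FRB, 0.096 and 0.34 with rapamycin, against -0.020 and 0.12 without in Mot1-FRB and 0.019 and 0.060 with rapamycin, against -0.11 and 0.13 without in WT. Both treated NCB2-FRB cultures were above all other cultures, and the change was 0.58 ± 0.12 in NCB2-FRB (adjusted p = 0.00392) against 0.17 ± 0.12 in Mot1-FRB (adjusted p = 0.304). PUP1, which encodes the trypsin-like subunit, was at 0.11 and 0.17 with rapamycin, against -0.13 and -0.083 without in NCB2-FRB, -0.16 and -0.11 with rapamycin, against -0.11 and -0.092 without in Mot1-FRB and -0.12 and -0.15 with rapamycin, against -0.11 and -0.14 without in WT. It was positive in the 2 treated NCB2-FRB cultures and negative in the other 10. Its change was 0.25 ± 0.054 in NCB2-FRB (adjusted p = 0.00567) and -0.038 ± 0.054 in Mot1-FRB (adjusted p = 0.630).

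PRE4, whose product joins late in the assembly of the core, had the lowest log2 change of the beta genes in both tagged strains. It was at -0.57 and -0.27 with rapamycin, against -0.073 and 0.088 without in NCB2-FRB, -0.50 and -0.30 with rapamycin, against -0.14 and -0.037 without in Mot1-FRB and -0.046 and 0.077 with rapamycin, against -0.12 and 0.032 without in WT. In both tagged strains the treated cultures lay below the untreated ones. The change of -0.43 ± 0.12 in NCB2-FRB was called (adjusted p = 0.0172), though not without treated culture a (-0.28, adjusted p = 0.103) or untreated culture b (-0.35, adjusted p = 0.108). The Mot1-FRB difference of -0.31 ± 0.12 had an adjusted p of 0.0634, or 0.000633 with the letter as a block. PRE1, the beta gene with the smallest NCB2-FRB difference, was at -0.12 and 0.15 with rapamycin, against -0.20 and 0.11 without there. It was at -0.33 and -0.087 with rapamycin, against -0.22 and 0.043 without in Mot1-FRB and -0.15 and 0.070 with rapamycin, against -0.091 and 0.084 without in WT. PRE1 lay lower in culture a than in culture b in all 6 groups, and its -0.12 ± 0.15 in Mot1-FRB had an adjusted p of 0.572, or 0.0327 with the block. PRE3, which encodes the caspase-like subunit, differed by 0.40 ± 0.16 in NCB2-FRB (adjusted p = 0.0814, or 7.51e-05 with the block). PUP3 differed by -0.21 ± 0.090 in Mot1-FRB (adjusted p = 0.10, or 0.00709 with the block), and PRE2, for the chymotrypsin-like subunit, by -0.081 ± 0.11 in Mot1-FRB and 0.069 ± 0.11 in NCB2-FRB, neither called.

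**Figure D3:**
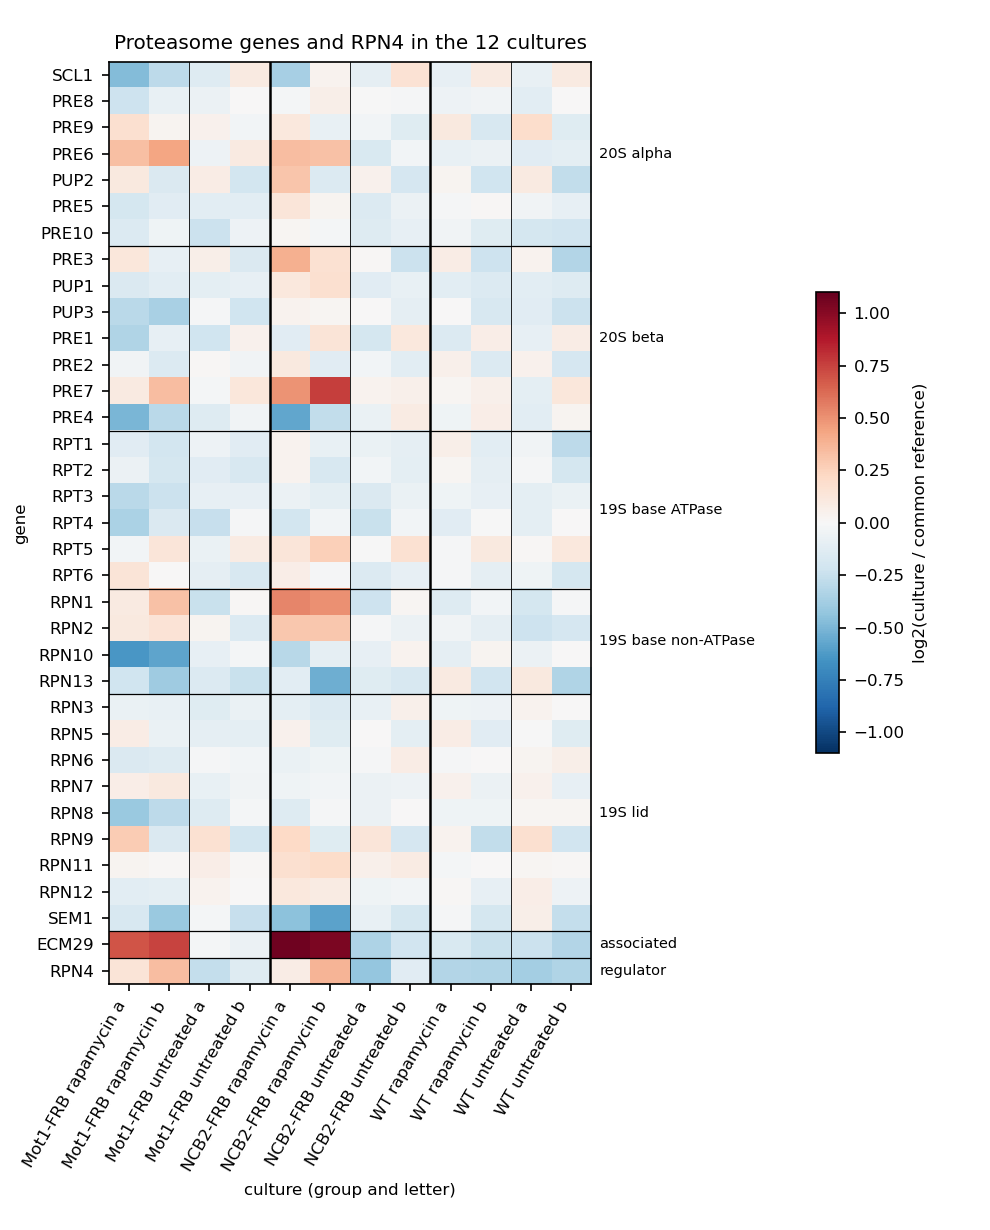
Log2 ratio to the common reference (colour) of the 35 genes (rows, by role) in each of the 12 cultures (columns; rapamycin left of untreated in each strain). ECM29 is the deepest red in the 4 treated cultures of the tagged strains, and RPN10 the deepest blue in treated Mot1-FRB.

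The 6 ATPases of the cap's base thread substrates into the core and were the flattest role group. RPT3, whose product docks its tail in the core, fell in Mot1-FRB, with a change of -0.18 ± 0.056 (adjusted p = 0.0354), and no ATPase gene was called in NCB2-FRB. That call was lost without any 1 of the 4 Mot1-FRB cultures or either untreated WT culture. The highest of those adjusted p-values, without treated Mot1-FRB culture a, came with a change of -0.15, adjusted p = 0.158. The others were -0.20, adjusted p = 0.0728 without treated culture b, -0.17, adjusted p = 0.124 without untreated culture a and -0.18, adjusted p = 0.119 without untreated culture b. Without untreated WT culture a or b it was -0.18, adjusted p = 0.0521, and with loess per print tip -0.21, adjusted p = 0.0651. RPT6 had the largest ATPase difference in both tagged strains. It was at 0.15 and 0.0072 with rapamycin, against -0.099 and -0.17 without in Mot1-FRB, 0.076 and -0.0095 with rapamycin, against -0.15 and -0.086 without in NCB2-FRB and -0.015 and -0.10 with rapamycin, against -0.045 and -0.20 without in WT. Both treated cultures were above both untreated ones in each tagged strain, yet 0.21 ± 0.078 in Mot1-FRB had an adjusted p of 0.0581 and 0.15 ± 0.078 in NCB2-FRB one of 0.152. With the block these became 0.00710 and 0.0336. RPT2, whose product helps open the core's gate, had the smallest difference, at -0.061 and -0.20 with rapamycin, against -0.13 and -0.18 without in Mot1-FRB. It was at 0.038 and -0.18 with rapamycin, against -0.026 and -0.10 without in NCB2-FRB and 0.025 and -0.10 with rapamycin, against -0.014 and -0.20 without in WT, so that its groups overlapped in all 3 strains. RPT1, RPT4 and RPT5 had differences of -0.12 to 0.12 in the tagged strains, of which RPT4 in Mot1-FRB (adjusted p = 0.0372) and RPT5 in NCB2-FRB (adjusted p = 0.0218) passed only with the block.

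Among the other base subunits, the ubiquitin receptor gene RPN10 fell in Mot1-FRB, and the scaffold genes RPN1 and RPN2 rose in NCB2-FRB. RPN10 was at -0.64 and -0.58 with rapamycin, against -0.091 and -0.018 without in Mot1-FRB, the lowest of the 35 members in each treated Mot1-FRB culture. In NCB2-FRB it was -0.30 and -0.10 with rapamycin, against -0.091 and 0.041 without, and in WT -0.10 and 0.026 with rapamycin, against -0.062 and 0.00078 without. Only the 2 treated Mot1-FRB cultures were below -0.5. The Mot1-FRB change was -0.56 ± 0.085 (0.68 times the untreated level, adjusted p = 0.000966), and the -0.18 ± 0.085 of NCB2-FRB had an adjusted p of 0.129, or 0.00846 with the letter as a block. RPN1, a scaffold that docks ubiquitin shuttle proteins, was at 0.53 and 0.50 with rapamycin, against -0.23 and 0.023 without in NCB2-FRB, 0.097 and 0.32 with rapamycin, against -0.24 and 0.013 without in Mot1-FRB and -0.14 and -0.034 with rapamycin, against -0.20 and -0.017 without in WT. The treated cultures lay above the untreated ones in both tagged strains, most clearly in NCB2-FRB. Its change was 0.62 ± 0.12 in NCB2-FRB (adjusted p = 0.00321) and 0.33 ± 0.12 in Mot1-FRB (adjusted p = 0.0632, or 0.00258 with the block). RPN2, the other large scaffold, rose in NCB2-FRB by 0.33 ± 0.069 (adjusted p = 0.00432), a call lost with loess per print tip (0.22, adjusted p = 0.103), and differed by 0.19 ± 0.069 in Mot1-FRB (adjusted p = 0.0553, or 0.0156 with the block). RPN13, a second ubiquitin receptor, was at -0.22 and -0.39 with rapamycin, against -0.15 and -0.25 without in Mot1-FRB and -0.11 and -0.53 with rapamycin, against -0.13 and -0.17 without in NCB2-FRB. In WT it was 0.095 and -0.21 with rapamycin, against 0.11 and -0.33 without. Its values ran lower in culture b than in culture a in all 6 groups, and its -0.11 ± 0.18 in Mot1-FRB and -0.17 ± 0.18 in NCB2-FRB were not called.

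The lid removes ubiquitin chains, and 1 of its 9 genes was called in each tagged strain, a different gene in each. RPN8, which encodes the inactive partner of the deubiquitinase, was at -0.41 and -0.29 with rapamycin, against -0.14 and -0.022 without in Mot1-FRB, -0.14 and -0.011 with rapamycin, against -0.066 and 0.0017 without in NCB2-FRB and -0.043 and -0.047 with rapamycin, against 0.018 and 0.018 without in WT. The treated Mot1-FRB cultures were below all others, with a change of -0.27 ± 0.071 (adjusted p = 0.0161). It was not called without treated culture a (-0.21, adjusted p = 0.10) or untreated culture b (-0.21, adjusted p = 0.112), nor in the authors' deposited values (-0.11, adjusted p = 0.126), and with loess per print tip it was -0.18, adjusted p = 0.0395. SEM1, a small subunit shared with complexes outside the proteasome, was at -0.45 and -0.59 with rapamycin, against -0.082 and -0.19 without in NCB2-FRB, -0.18 and -0.41 with rapamycin, against -0.022 and -0.26 without in Mot1-FRB and -0.016 and -0.20 with rapamycin, against 0.063 and -0.26 without in WT. Both treated NCB2-FRB cultures were the lowest of all 12. The change of -0.38 ± 0.13 in NCB2-FRB had an adjusted p of 0.0443, and -0.15 ± 0.13 in Mot1-FRB had 0.406, or 0.0338 with the block. The NCB2-FRB call was lost without any 1 of 6 arrays, namely treated culture a (-0.45, adjusted p = 0.0612), treated culture b (-0.32, adjusted p = 0.187), untreated culture a (-0.33, adjusted p = 0.188), untreated culture b (-0.44, adjusted p = 0.0885) and treated WT culture a or b (-0.38, adjusted p = 0.0528), and also with no background correction (-0.39, adjusted p = 0.0541).

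RPN11, the deubiquitinase itself, had the smallest lid difference in Mot1-FRB, at 0.032 and 0.011 with rapamycin, against 0.070 and 0.015 without. In NCB2-FRB it was 0.17 and 0.20 with rapamycin, against 0.059 and 0.087 without, and in WT -0.018 and 0.0057 with rapamycin, against 0.026 and 0.017 without. It stood above the untreated cultures in NCB2-FRB by 0.11 ± 0.051, which passed only with the block (adjusted p = 0.105 without it and 0.0305 with it). RPN5, a subunit also found in the yeast COP9 signalosome, had the smallest lid difference in NCB2-FRB, at 0.050 and -0.13 with rapamycin, against 0.0048 and -0.11 without. It was at 0.079 and -0.077 with rapamycin, against -0.098 and -0.11 without in Mot1-FRB and 0.085 and -0.13 with rapamycin, against -0.0031 and -0.13 without in WT, with a difference of 0.11 ± 0.098 in Mot1-FRB that was not called. RPN3, RPN6, RPN7, RPN9 and RPN12 had log2 differences of -0.13 to 0.15 in the tagged strains, none past the threshold without a block. With it, RPN6 (adjusted p = 0.0189) and RPN12 (adjusted p = 0.0355) were lower and RPN7 (adjusted p = 0.0403) was higher in Mot1-FRB, and RPN12 was higher in NCB2-FRB (adjusted p = 0.0285).

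ECM29 encodes a large protein that binds core and cap together and inspects faulty assemblies. It had the highest ratio of any member in the treated cultures of both tagged strains. In NCB2-FRB it was 1.07 and 1.03 with rapamycin, against -0.34 and -0.21 without, in Mot1-FRB 0.69 and 0.74 with rapamycin, against -0.019 and -0.062 without and in WT -0.16 and -0.25 with rapamycin, against -0.24 and -0.32 without. No treated culture of a tagged strain overlapped any other culture. The change was 1.32 ± 0.067 in NCB2-FRB (adjusted p = 6.02e-06) and 0.75 ± 0.067 in Mot1-FRB (adjusted p = 5.81e-05). Among all 6388 probes its change stood at percentile 98.4 in NCB2-FRB and 93.6 in Mot1-FRB, and both calls held without any 1 array.

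RPN4, the regulator, rose in both tagged strains. It was at 0.14 and 0.34 with rapamycin, against -0.27 and -0.14 without in Mot1-FRB, 0.082 and 0.37 with rapamycin, against -0.43 and -0.12 without in NCB2-FRB and -0.32 and -0.34 with rapamycin, against -0.37 and -0.33 without in WT. The 4 treated cultures of the tagged strains were the only ones above 0, and in each tagged strain culture b lay above culture a. The change was 0.45 ± 0.12 in Mot1-FRB (1.36-fold, adjusted p = 0.0201) and 0.50 ± 0.12 in NCB2-FRB (1.42-fold, adjusted p = 0.0105), and the effect in Mot1-FRB minus that in NCB2-FRB was -0.057 ± 0.18 (95% interval -0.45 to 0.34). The calls were lost without treated culture b (0.34, adjusted p = 0.129 in Mot1-FRB and 0.36, adjusted p = 0.0743 in NCB2-FRB) or untreated culture a (0.38, adjusted p = 0.112 in Mot1-FRB and 0.35, adjusted p = 0.0833 in NCB2-FRB). Beside this rise, 2 of the 34 other members were called higher and 3 lower in Mot1-FRB, beside 22% and 15.3% of all probes, and 7 higher and 2 lower in NCB2-FRB, beside 22.8% and 18.2% of all probes. With the letter as a block these counts were 6 and 12 in Mot1-FRB, beside 33.9% and 28.4%, and 12 and 4 in NCB2-FRB, beside 31.8% and 30.8%.

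**Figure D4:**
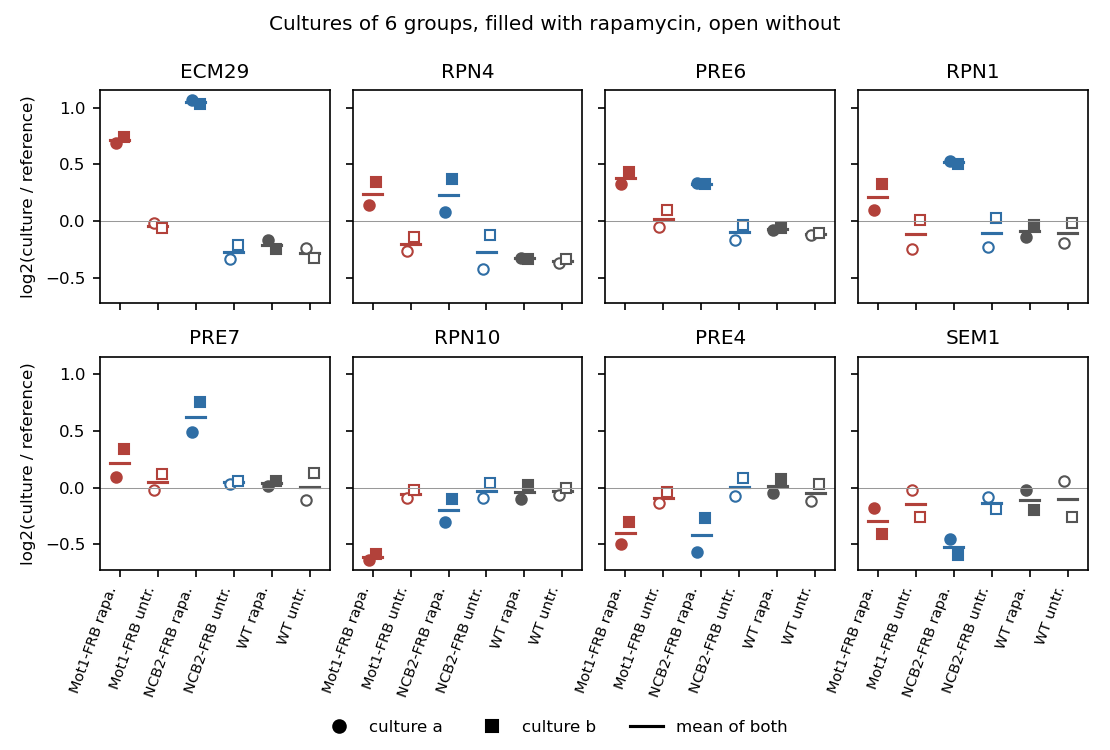
Log2 ratio to the common reference (y axis) of 8 genes in the 6 groups (rapamycin left of untreated), with culture a as a circle, culture b as a square and their mean as a line; filled symbols had rapamycin. In both tagged strains the treated cultures of ECM29, RPN4, PRE6 and RPN1 lie above the untreated ones and those of PRE4 below, RPN10 is lowest in treated Mot1-FRB, and in WT no gene was called.

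In WT cells none of the 35 genes was called with rapamycin, as none of all probes was (0%), and 0 members had an unadjusted p under 0.05, beside 118 of all probes. The log2 differences ran between -0.098 for RPN9 and 0.14 for RPT1, with a median of 0.019. Both treated cultures were above both untreated ones for 4 members and below them for 4, beside 12.3% and 11.6% of all probes. ECM29 differed by 0.074 ± 0.067, RPN4 by 0.023 ± 0.12 and RPN10 by -0.0071 ± 0.085, none of them called. The dim array is among the 2 treated WT arrays.

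Set against the same drug in WT, 2 members (5.71%) differed in Mot1-FRB, beside 19.4% of all probes (12.7% higher and 6.7% lower). The effect on RPN10 was lower by -0.55 ± 0.12 (adjusted p = 0.0127) and that on ECM29 higher by 0.68 ± 0.094 (adjusted p = 0.00187), and both calls held without any 1 array. With the letter as a block 11 were called, beside 44.7% of all probes (25.4% higher and 19.3% lower): PRE6, RPN1, RPN9, ECM29 and RPN4 with a higher effect, and SCL1, PUP3, PRE4, RPT3, RPN10 and RPN8 with a lower one. In NCB2-FRB 5 members (14.3%) differed from WT, all higher, beside 23.5% of all probes, 14.5% higher and 8.95% lower. They were ECM29 by 1.25 ± 0.094 (adjusted p = 0.000147), RPN1 by 0.60 ± 0.17 (adjusted p = 0.0337), PRE7 by 0.55 ± 0.17 (adjusted p = 0.0416), PRE6 by 0.39 ± 0.10 (adjusted p = 0.0247) and PUP1 by 0.25 ± 0.076 (adjusted p = 0.0414). With the block 11 were called, beside 48.4% of all probes (25.5% higher and 22.8% lower), PRE3, RPN9, RPN12 and RPN4 joining those with a higher effect and PRE4 and SEM1 being lower.

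The rise of RPN4 was not called as different from WT without the block, at 0.42 ± 0.18 in Mot1-FRB (adjusted p = 0.132, or 0.0119 with it) and 0.48 ± 0.18 in NCB2-FRB (adjusted p = 0.0815, or 0.00579 with it). In NCB2-FRB that outcome was not the same in all runs that left out 1 array. The comparisons with WT share the 4 WT cultures, so the 2 sets of differences are not independent. In NCB2-FRB the number of members called fell to 1 without untreated NCB2-FRB culture a, either treated WT culture or untreated WT culture b, and to 3 without untreated WT culture a or either untreated Mot1-FRB culture. Without treated NCB2-FRB culture b it was 2, ECM29 and PRE4, a call that was not made with all arrays (-0.63, adjusted p = 0.0251), and RPN1, PRE7, PRE6 and PUP1 were all lost. ECM29 was called in all of these runs. The highest adjusted p of the others came with values of, for PUP1 0.23, adjusted p = 0.127 without untreated NCB2-FRB culture a, for PRE7 0.43, adjusted p = 0.132 without untreated WT culture b, and for RPN1 0.48, adjusted p = 0.115 and for PRE6 0.32, adjusted p = 0.0891 without untreated NCB2-FRB culture a. PRE6 was also not called with loess per print tip (0.15, adjusted p = 0.388) or in the authors' deposited values (0.22, adjusted p = 0.0612). PUP1 was not called with no background correction (0.24, adjusted p = 0.0805) or among probes above the blanks on all 12 arrays (0.25, adjusted p = 0.0558). PRE7 was smaller but called with loess per print tip (0.34, adjusted p = 0.0216) and in the authors' deposited values (0.31, adjusted p = 0.00628). None of the differences from WT, ECM29 included, was called with median or external control centring.

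The effect in Mot1-FRB minus that in NCB2-FRB was below 0 for 26 of the 35 members, with a median of -0.14, while over all probes 53.5% were above 0 and the median was 0.012. A single gene passed the test, ECM29, with an effect lower by -0.57 ± 0.094 in Mot1-FRB (adjusted p = 0.0463), beside 0.501% of all probes, 0.219% higher and 0.282% lower. That call was lost without any 1 of the 12 arrays, with adjusted p-values from 0.0878 to 0.192 and differences of -0.63 to -0.50, as it was with no background correction (-0.57, adjusted p = 0.0584) and among probes above the blanks on all 12 arrays (-0.57, adjusted p = 0.0534). With the letter as a block 7 members were called, all lower in Mot1-FRB, beside 16.4% of all probes, 8.59% higher and 7.81% lower. Besides ECM29 (0.00458) these were the beta genes PRE3 (-0.33, adjusted p = 0.0131), PUP1 (-0.28, adjusted p = 0.0141), PUP3 (-0.29, adjusted p = 0.0317) and PRE7 (-0.41, adjusted p = 0.0197), and the cap genes RPN10 (-0.38, adjusted p = 0.00786) and RPN12 (-0.27, adjusted p = 0.0274). By role, the difference was below 0 for all 7 alpha genes (-0.24 for PRE5 to -0.0100 for PRE9), for 6 of 7 beta genes, for 7 of the 10 base genes and for 4 of 9 lid genes.

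Without rapamycin no member was called in either tagged strain against WT, beside 0.971% of all probes in Mot1-FRB and 0.0157% in NCB2-FRB. In each comparison 1 member had an unadjusted p under 0.05. In Mot1-FRB it was ECM29, higher by 0.24 ± 0.067 in untreated Mot1-FRB (adjusted p = 0.205, or 0.0409 with the letter as a block, beside 7% of all probes called so). In NCB2-FRB it was RPN2, with a difference of 0.17 ± 0.069 (adjusted p = 1.00). The untreated cultures of ECM29 thus stood at -0.019 and -0.062 in Mot1-FRB, against -0.24 and -0.32 in WT.

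Part of the spread between replicates followed the culture letter. Every culture a was labelled with Cy3 and every culture b with Cy5, so colony and dye cannot be told apart within a group. For 11 members culture a was above culture b in all 6 groups and for 7 it was below in all 6, and the other 17 were mixed. The matching shares of all probes are not given here. Across all probes same-letter arrays deviated together (correlations of 0.483 to 0.817), so the gaps are not particular to the members. The widest gaps were those of RPN9, 0.31 to 0.43 higher in culture a, and PUP2, 0.24 to 0.46 higher, and on the other side SCL1, 0.18 to 0.40 lower, and PRE1, 0.18 to 0.31 lower. ECM29 had gaps of -0.13 to 0.089, far under its change with rapamycin in either tagged strain. RPN9 differed with rapamycin by 0.079 ± 0.22 in Mot1-FRB and 0.070 ± 0.22 in NCB2-FRB, the widest SE of the 35 genes.

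Genes for the chaperones that build the proteasome were in part called with rapamycin in the tagged strains. Of 10 assembly chaperone genes, 4 rose and 1 fell in Mot1-FRB, and 5 rose and 2 fell in NCB2-FRB, or 50% and 70% of the list, beside the 37.3% and 41% of all probes given above. With the letter as a block 60% and 90% of the list were called, beside 62.3% and 62.6% of all probes. NAS6, among the genes that rose in both, was not called in the authors' deposited values (0.050, adjusted p = 0.379 in Mot1-FRB and 0.019, adjusted p = 0.742 in NCB2-FRB). TMA17, which helps pair ATPases of the base under stress, was at 1.18 and 1.54 with rapamycin, against 0.30 and 0.49 without in Mot1-FRB, 1.19 and 1.80 with rapamycin, against -0.066 and -0.0055 without in NCB2-FRB and -0.25 and -0.086 with rapamycin, against -0.24 and -0.084 without in WT. It changed by 0.96 ± 0.19 in Mot1-FRB (adjusted p = 0.00356) and 1.53 ± 0.19 in NCB2-FRB (adjusted p = 0.000250). HSM3, another base chaperone, rose by 0.76 ± 0.090 in Mot1-FRB and 0.51 ± 0.090 in NCB2-FRB (adjusted p = 0.000253 and 0.00184). RPN14, also a base chaperone, fell, with changes of -0.32 ± 0.079 in Mot1-FRB and -0.64 ± 0.079 in NCB2-FRB (adjusted p = 0.0114 and 0.000263). PBA1, of the core-building chaperones, rose by 0.41 ± 0.074 in Mot1-FRB and 0.35 ± 0.074 in NCB2-FRB (adjusted p = 0.00247 and 0.00493). Without treated culture a or untreated culture b, RPN14 was not called in Mot1-FRB (-0.31, adjusted p = 0.0507 and -0.28, adjusted p = 0.0744), and PBA1 was not called in NCB2-FRB with loess per print tip (0.13, adjusted p = 0.143) or in the authors' deposited values (0.11, adjusted p = 0.0753). In Mot1-FRB PBA1 was smaller but called in both, at 0.23, adjusted p = 0.0167 and 0.26, adjusted p = 0.00105. The list's median change was -0.041 in Mot1-FRB and 0.18 in NCB2-FRB. With median centring TMA17 (0.93, adjusted p = 0.132), RPN14 (-0.34, adjusted p = 0.248) and PBA1 (0.38, adjusted p = 0.261) were not called in Mot1-FRB, nor PBA1 in NCB2-FRB (0.33, adjusted p = 0.302), and with external controls none was.

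**Figure D5:**
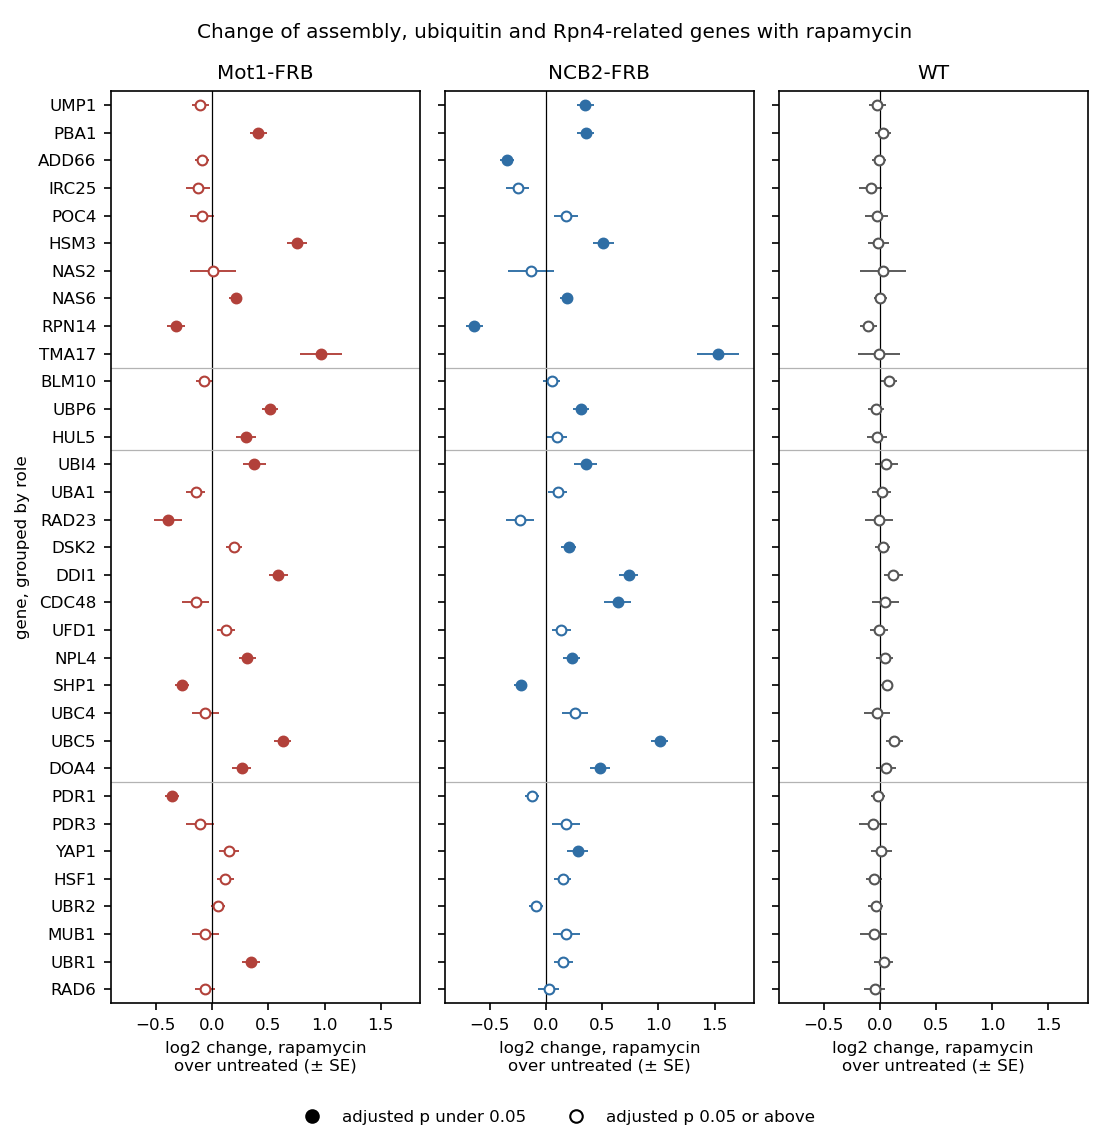
Log2 change with rapamycin over untreated (x axis, ± SE) of genes around the proteasome in Mot1-FRB, NCB2-FRB and WT. Rows are grouped by list: assembly chaperones, alternative cap and associated enzymes, ubiquitin with shuttles and Cdc48, and RPN4 activators with turnover enzymes. Filled points passed an adjusted p of 0.05. TMA17 lies at 0.96 in Mot1-FRB and 1.53 in NCB2-FRB, and no point is filled in WT.

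Among enzymes that ride on the proteasome, the deubiquitinase gene UBP6 rose by 0.51 ± 0.073 in Mot1-FRB and 0.31 ± 0.073 in NCB2-FRB (adjusted p = 0.000683 and 0.00818), and the ubiquitin ligase gene HUL5 by 0.30 ± 0.090 in Mot1-FRB (adjusted p = 0.0274). The calls were lost for UBP6 in NCB2-FRB without untreated culture a (0.26, adjusted p = 0.0657) and for HUL5 without treated culture b (0.19, adjusted p = 0.186) or untreated culture a (0.23, adjusted p = 0.164). With loess per print tip HUL5 was not called (0.13, adjusted p = 0.108), and in the authors' deposited values it was 0.15, adjusted p = 0.0415. BLM10, the alternative cap, was not called in either. Of 12 genes for ubiquitin, its shuttles and the Cdc48 segregase, 5 rose and 2 fell in Mot1-FRB, beside 22% and 15.3% of all probes, and 7 rose and 1 fell in NCB2-FRB, beside 22.8% and 18.2%. UBI4, among the genes that rose in both, was saturated on 3 arrays. In the authors' deposited values UBI4 was not called (0.27, adjusted p = 0.147 in Mot1-FRB and -0.0041, adjusted p = 0.984 in NCB2-FRB). The conjugating enzyme gene UBC5 rose by 0.63 ± 0.078 in Mot1-FRB and 1.01 ± 0.078 in NCB2-FRB (adjusted p = 0.000319 and 2.21e-05), and the shuttle gene DDI1 by 0.59 ± 0.085 and 0.73 ± 0.085 (adjusted p = 0.000760 and 0.000190). RAD23, another shuttle, fell in Mot1-FRB, with a change of -0.39 ± 0.12 (adjusted p = 0.0356). It was not called without any 1 of the 4 Mot1-FRB cultures, with -0.34, adjusted p = 0.141 and -0.44, adjusted p = 0.0779 without treated cultures a and b and -0.47, adjusted p = 0.0582 and -0.31, adjusted p = 0.178 without untreated cultures a and b. CDC48, the segregase, rose in NCB2-FRB by 0.64 ± 0.12 (adjusted p = 0.00269) beside -0.14 ± 0.12 in Mot1-FRB (adjusted p = 0.383). A further list held 8 genes for activators of RPN4 and for turnover enzymes, those of Rpn4 (UBR2, MUB1 and RAD6) among them. In Mot1-FRB the ligase gene UBR1 rose by 0.35 ± 0.081 (adjusted p = 0.00851). The activator gene PDR1 fell there, with a change of -0.36 ± 0.064 (adjusted p = 0.00241). These were 2 of the 8 beside 37.3% of all probes, and UBR2, MUB1 and RAD6 were not called. YAP1, another activator, rose by 0.28 ± 0.092 in NCB2-FRB (adjusted p = 0.0361), the only 1 of the 8 called there, beside 41% of all probes, or 3 of the 8 with the letter as a block, beside 62.6%. UBR1 was not called without treated culture b (0.26, adjusted p = 0.0687) or untreated culture a (0.26, adjusted p = 0.0700), nor with loess per print tip (0.15, adjusted p = 0.0873), and in the authors' deposited values it was 0.19, adjusted p = 0.0179. YAP1 was not called without treated NCB2-FRB culture b (0.23, adjusted p = 0.171), untreated NCB2-FRB culture a (0.21, adjusted p = 0.208) or treated WT culture a or b (0.28, adjusted p = 0.0529). Of the genes named here, median centring kept the calls of DDI1 in both strains and of UBC5 in NCB2-FRB and lost the others, among them UBC5 in Mot1-FRB (0.60, adjusted p = 0.0575), UBP6 in Mot1-FRB (0.48, adjusted p = 0.312) and CDC48 (0.81, adjusted p = 0.176), and external control centring lost them all. No gene of these lists was called in WT.

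The 35 genes lie on 13 chromosomes, by the reference gene table (R64). The closest members were PRE4 and RPN12 on chromosome VI and RPT4 and RPN8 on chromosome XV, each pair with 1 gene between them. PRE4 and RPN12 differed in direction in NCB2-FRB, at -0.43 (called) and 0.14 (not called). In Mot1-FRB both were lower within letters a and b, PRE4 by -0.36 and -0.26 and RPN12 by -0.15 and -0.11, neither called. RPT4 and RPN8 in Mot1-FRB stood at -0.12 (not called) and -0.27 (called). Within letters a and b of NCB2-FRB, RPT4 differed by 0.045 and -0.0032 and RPN8 by -0.076 and -0.012, neither called.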

How the data were processed

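Each of the 12 spotted arrays compared RNA of 1 culture in one dye with a common reference of untreated WT RNA in the other. Slides were read on an Agilent G2565BA scanner and quantified with Imagene, per the labels' protocols. Raw spot and background intensity in each channel was deposited without normalization, per the file headers. Normalized intensities were made by the authors with LOESS in each print tip (span 0.4), no background subtraction and, after that, a dye-bias correction for each gene, per the labels' protocols. The deposited table of log2(culture/reference) was found to equal the ratio of those normalized intensities in both dye orientations, and served as an alternative.

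The values reported start from the raw intensities. In limma 3.58.1 (R 4.3.3), normexp with an offset of 50 corrected background, a global loess fitted to gene spots (span 0.3, 4 iterations) normalized each array, and both spots of a probe were averaged as culture over reference, with no filter. Above the blanks means over percentile 95 of blank spots, and saturated means over 32768. Group means were compared in 1 limma fit of all 12 arrays (two-sided, 6 residual degrees of freedom), with Benjamini-Hochberg adjustment over 6388 probes and a threshold of 0.05. The fit was tested on simulated data with noise drawn independently for each array. That test does not cover the deviation that same-letter arrays share. Python 3.11.15 and matplotlib 3.10.9 drew the figures.

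The letters a and b of the labels pair the arrays: same-letter arrays deviated from their group means with correlations across probes of 0.483 to 0.817 (15 pairs, median 0.660). The fit reported has no block. Alternatives were the letter as a block, loess per print tip, median or external control centring, no background correction, a filter on dim probes, the authors' values and leaving out each array.

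Members, gene lists and their roles were chosen with earlier results of these data known. Values in every culture are given for RPN4 and, in each role, for the members with the largest and the smallest absolute log2 change in the Mot1-FRB and NCB2-FRB comparisons (19 genes), and the rest by ranges and calls. From the other lists, genes called in a comparison are named, up to 4 a list by absolute change, and MOT1 and NCB2 are given as the tagged genes. NAS6 and UBI4 are also named, because their values moved with the processing.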

Additional observations from a re-analysis of the deposited data

Results flagged for a closer look

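These effects of rapamycin differed between strains by the interaction term of the limma fit (adjusted p under 0.05). In Mot1-FRB minus WT, the effect on RPN10 differed by -0.55 ± 0.12 on the log2 scale (adjusted p = 0.0127) and that on ECM29 by 0.68 ± 0.094 (adjusted p = 0.00187). In NCB2-FRB minus WT, the effect on ECM29 differed by 1.25 ± 0.094 (adjusted p = 0.000147), on RPN1 by 0.60 ± 0.17 (adjusted p = 0.0337), on PRE7 by 0.55 ± 0.17 (adjusted p = 0.0416), on PRE6 by 0.39 ± 0.10 (adjusted p = 0.0247) and on PUP1 by 0.25 ± 0.076 (adjusted p = 0.0414). In Mot1-FRB minus NCB2-FRB, the effect on ECM29 differed by -0.57 ± 0.094 (adjusted p = 0.0463). The RPN10 and ECM29 differences from WT passed without any 1 array, while the other 5 were lost in at least 6 of the 12 runs that left out 1 array. PRE6 was also lost with loess per print tip (0.15, adjusted p = 0.388) and in the authors' deposited values (0.22, adjusted p = 0.0612), and none of the 8 passed with median or external control centring. Groups of 2 cultures are too small for a check of single outlying cultures.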

How the results depend on the processing

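Counts of members called moved with the scaling and the model. Besides the fit reported and the block on it, the share of all probes called under each setting is not given here. The counts under those settings therefore do not show whether the members moved more or less than all probes. With the replicate block (letter a or b), 19 were called in Mot1-FRB against 6 without it, 17 in NCB2-FRB against 10, 11 in Mot1-FRB minus WT against 2, 11 in NCB2-FRB minus WT against 5, 7 in Mot1-FRB minus NCB2-FRB against 1, and 1 in untreated Mot1-FRB against untreated WT where the fit without it gave 0. The block changed no call other than those given in the report and, among the genes around the proteasome, calls within the counts of their lists. The authors' values gave 14, 16, 7, 12 and 4 in the first 5 of these comparisons, and with the block, a setting chosen after seeing the data, 16, 21, 10, 13, 5 and 1 in all 6. Median centring gave 0, 1, 0, 0 and 0 in the first 5, and external control centring 0 in each. Every call in this report that external control centring lost had an adjusted p of 0.999631 or above there, for large and small changes alike. Losing a call under that setting therefore does not set 1 gene apart from another. Loess per print tip gave 4 in Mot1-FRB minus WT and 9 in NCB2-FRB minus WT. No background correction and the filter on dim probes each gave 0 in Mot1-FRB minus NCB2-FRB. Leaving out 1 array gave 1 to 4 in NCB2-FRB minus WT and 0 in Mot1-FRB minus NCB2-FRB, with arms of 1 array assumed to vary like the others. The sign turned for PRE9 in Mot1-FRB (-0.20 in the authors' values, with and without the block, and -0.26 against WT with it), RPN5 in NCB2-FRB (-0.12 in the authors' values with the block), NAS6 (-0.013 in Mot1-FRB with external controls and -0.079 in NCB2-FRB with print-tip loess) and UBI4 in NCB2-FRB (-0.0041 in the authors' values). The cause was not tested. The median of all probes in Mot1-FRB minus WT was -0.13 with external control centring. The members' median kept its sign in both tagged strains under all these settings, and in WT was -0.14 with median centring and -0.066 with external controls, against 0.019. The 2 cultures a group and the dim treated WT array limit what can be called.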
